A study of Rattus norvegicus with 12 samples.

Results

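The genes described here are 8 chemokines that fibroblast-like synoviocytes (FLS) can express. They were Ccl2, Ccl7, Ccl20, Cxcl1, Cxcl2, Cxcl3, Cxcl12 and Cx3cl1. Each was found by its exact gene name among 22442 gene records, and 1 record carried each name. All 8 averaged 1 FPKM or more across libraries, so all 8 were among the 11611 records tested. FPKM counts the fragments mapped per kilobase of exon, scaled to the mapped reads of the library.

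FLS are the fibroblasts of the joint lining, and here they were cultured from the synovium of male Sprague Dawley rats with adjuvant arthritis (AA rats), a model raised with complete Freund's adjuvant. The FCA group was left untreated. The AT10, AT1 and AT01 groups received taurochenodeoxycholic acid (TCDCA), a taurine-conjugated bile acid, at 10 µM, 1 µM and 0.1 µM. There were 3 libraries in each group and 12 in all, sequenced from poly(A) RNA. The FCA cells also came from AA rats, and no group from healthy rats was analysed here. The labels do not say whether the 3 libraries of a group came from separate animals or cultures, so p-values measure only the spread between these samples.

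Chemokines are small secreted proteins that draw leukocytes along a gradient through receptors on their surface. CC chemokines such as Ccl2 and Ccl7 act mainly on monocytes, and Cxcl1, Cxcl2 and Cxcl3 act on neutrophils through Cxcr2. In the inflamed joint, synovial fibroblasts are a known source of both kinds, and transcription factors of the NF-kB family switch many of these genes on after TNF or IL-1.

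FPKM summed to between 284210 and 309696 per library, and between 11471 and 11679 records reached 1 FPKM. The deposited FPKM hold no read counts, so no counting interval is given, and read totals of the libraries were not used here. Of 12 fibroblast markers, 10 had a record, led by Vim, Dcn, Col3a1 and Col1a1, and their summed level ran from 5764.83 to 7237.63 FPKM. Macrophage markers had 6 of 12 with a record and summed to between 1.95 and 3.52 FPKM, with Cd68 as the single marker tested. Endothelial markers (6 of 7 with a record) summed to at most 0.21 FPKM, with Tie1 at 0 in all libraries. T cell markers (3 of 5 with a record) summed to at most 0.07 FPKM, with Cd3e at 0. The markers with a record therefore matched fibroblasts, and no comparison with fibroblasts of other tissues was made. Markers without a record, among them the fibroblast genes Col1a2 and Pdgfra and the macrophage marker Ptprc, say nothing of presence or absence. In such bulk samples, fewer cells of a type and less RNA per cell cannot be told apart.

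The stretch of DNA before the start of a chemokine gene is where NF-kB is known to act, and 3 of the members carried a form of its site there. The letters searched were GGG, any 2 bases and TTTCC, on both strands and without gaps, within 250 bases before each start. RefSeq promoters on the rat build GRCr8 were used, and 6 of the 8 members had an entry (Ccl2 and Cxcl3 had none). The form stood in 435 of 33469 promoters (1.30%). It stood in those of Cxcl1, Cxcl2 and Ccl20, each printed here as the 150 bases before its start, 5′ to 3′ on the gene's strand, with the form in capitals. The promoter of Ccl7 is shown beside them as one that lacks it, in front of the second most abundant member. The Cxcl1 stretch is chr14:17479322-17479471 on the minus strand and the Cxcl2 stretch is chr14:17467256-17467405 on the minus strand. The Ccl20 stretch is chr9:91837009-91837158 and the Ccl7 stretch is chr10:67513945-67514094, both on the plus strand.
Cxcl1: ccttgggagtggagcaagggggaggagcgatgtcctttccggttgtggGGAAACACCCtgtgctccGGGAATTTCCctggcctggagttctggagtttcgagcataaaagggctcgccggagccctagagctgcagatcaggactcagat
Cxcl2: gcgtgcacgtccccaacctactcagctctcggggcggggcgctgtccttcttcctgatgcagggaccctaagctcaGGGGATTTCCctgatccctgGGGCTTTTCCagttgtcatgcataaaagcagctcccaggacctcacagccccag
Ccl20: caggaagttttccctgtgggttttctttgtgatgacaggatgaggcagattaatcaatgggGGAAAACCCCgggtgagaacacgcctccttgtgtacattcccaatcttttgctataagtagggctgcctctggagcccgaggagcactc
Ccl7: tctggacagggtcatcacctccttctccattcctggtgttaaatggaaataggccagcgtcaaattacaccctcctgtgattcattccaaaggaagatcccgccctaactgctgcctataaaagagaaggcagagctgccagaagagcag
Cxcl1 and Cxcl2 held 2 matches each and Ccl20 held 1. A match describes the letters only. Their absence in a window says nothing of the factor. The matches lay 102 to 93 bases (opposite strand) and 84 to 75 bases before the start of Cxcl1. For Cxcl2 they lay 74 to 65 and 54 to 45 bases before it, and for Ccl20 89 to 80 bases before it, on the opposite strand. Ccl7 held an AP-1 form (TGANTCA, in 6.34% of all promoters) 73 to 67 bases before its start. It also held a TATA box form (TATAAA, in 8.06%) 34 to 29 bases before the start. Cx3cl1 held the TATA box form farther away, 78 to 73 bases before its start. The genome build behind the FPKM records was not given in the sources used here.

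The members ranged from among the most abundant records to low ones. By mean FPKM, Ccl2 ranked 6 of 22442 records, Ccl7 45, Cxcl1 61, Cxcl3 181 and Ccl20 437. Cxcl12 ranked 2951, Cxcl2 8715 and Cx3cl1 8974. Together the 8 made up 0.711% to 1.99% of the FPKM of a library, with the lowest share in FCA replicate 1 and the highest in AT10 replicate 3. Ccl2 alone gave 40.8% to 67.8% of their sum.

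By median FPKM over the 12 libraries the order was Ccl2, Ccl7, Cxcl1, Cxcl3, Ccl20, Cxcl12, Cxcl2 and Cx3cl1. Ccl2 stood above Ccl7, Cxcl1 above Cxcl3, Cxcl3 above Ccl20, Ccl20 above Cxcl12 and Cxcl12 above Cxcl2 in 12 of 12 libraries. Neighbours that changed places were Ccl7 and Cxcl1, in this order in 7 of 12 libraries, and Cxcl2 and Cx3cl1, in 8 of 12. Cxcl1 and Cxcl2 both carry the NF-kB form, and their medians were 475.69 and 2.11 FPKM. A link between the form and the level was not tested.

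**Figure D1:**
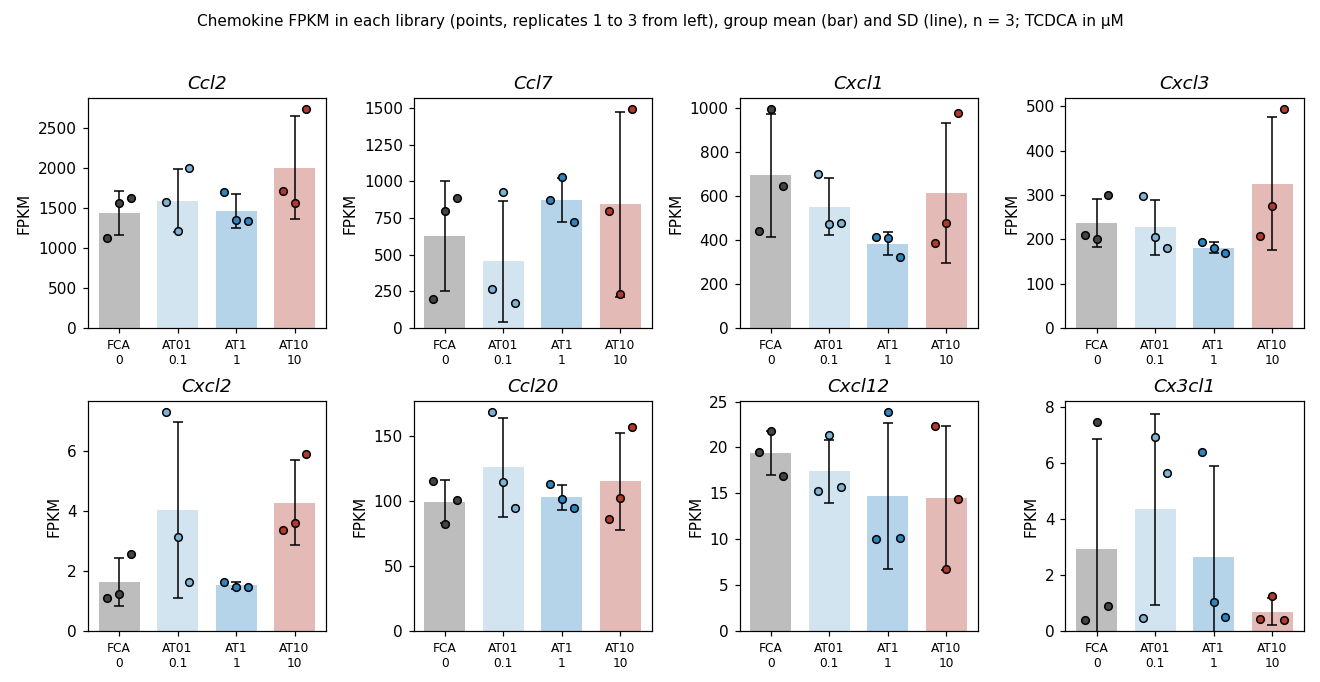
FPKM (vertical axis, linear, from 0) of each chemokine in the 4 groups, ordered by TCDCA dose in µM. Points are libraries, bars are means and lines are SD (n = 3, cut off at 0), and the points of most groups overlap with those of FCA.

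Ccl2 (MCP-1, record MSTRG.3147) recruits monocytes and was the most abundant member. It was at 1121.54, 1565.22 and 1630.02 FPKM in FCA, at 1570.22, 1207.34 and 2000.23 in AT01, at 1704.87, 1345.77 and 1336.94 in AT1, and at 1714.27, 1565.03 and 2737.13 in AT10. The highest library was AT10 replicate 3, and every treated group overlapped with FCA. AT10 averaged 2005.48 ± 638.0 FPKM against 1438.93 ± 276.8 in FCA (SD, n = 3), a log2 fold change of 0.45 (95% interval -0.19 to 1.09; limma, Benjamini-Hochberg adjusted p = 0.528). The log2 fold changes here and below are of log2(FPKM + 1), which understates changes of low genes.

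Ccl7 (MCP-3, MSTRG.3148), a related monocyte chemokine, fell into a low and a high set of libraries. It was at 199.42, 795.16 and 887.18 FPKM in FCA, at 262.58, 927.52 and 171.99 in AT01, at 872.93, 1026.00 and 724.34 in AT1, and at 799.25, 232.53 and 1492.67 in AT10. The 4 low libraries lay between 171.99 and 262.58 FPKM and the 8 high ones between 724.34 and 1492.67 FPKM, and the low ones were FCA replicate 1, AT10 replicate 2, AT01 replicate 1 and AT01 replicate 3. No group other than AT1 lay on 1 side of this gap. Ccl2 was at 1121.54, 1565.03, 1570.22 and 2000.23 FPKM in these 4 libraries. FCA replicate 1 was thus the lowest of all 12 for Ccl2, and AT01 replicate 3 was the highest of AT01. Ccl7 was 8.60% to 17.8% of Ccl2 in the 4 low libraries and 46.6% to 76.8% in the others. Against FCA its log2 fold change came to 0.33 for AT10 (95% interval -1.85 to 2.50), to 0.73 for AT1 (-0.75 to 2.22) and to -0.58 for AT01 (-2.65 to 1.49), with limma adjusted p of 0.89, 0.635 and 0.876. Without AT10 replicate 2 the AT10 value was 1.07, and without FCA replicate 1 it was -0.36.

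**Figure D2:**
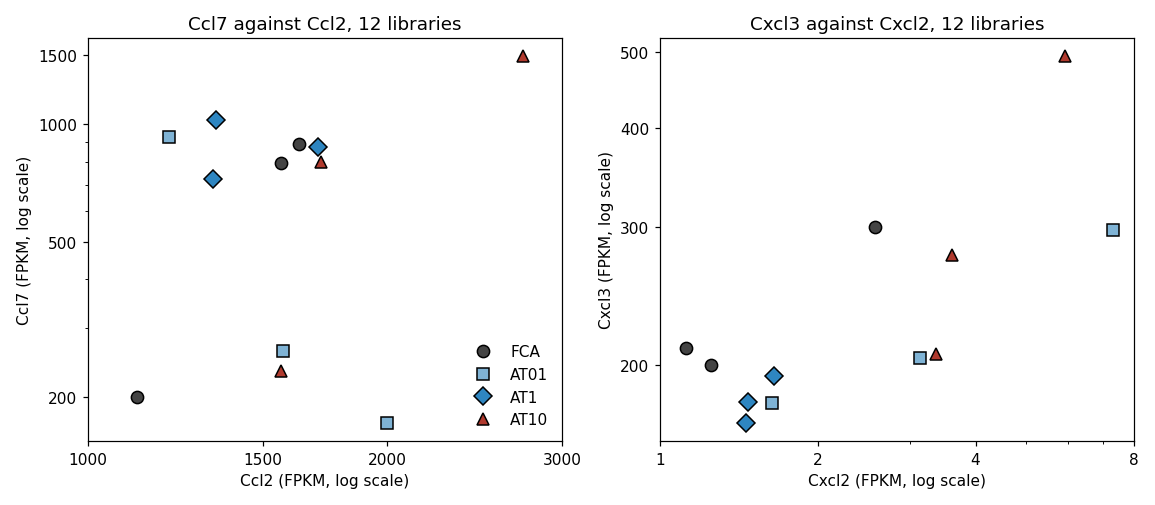
Left, Ccl7 against Ccl2, and right, Cxcl3 against Cxcl2, in FPKM on log axes, with 1 point per library and a symbol per group. The 4 low libraries, from 3 groups, lie low for Ccl7 with Ccl2 between 1121.54 and 2000.23 FPKM, and AT10 replicate 3 lies highest for Cxcl3.

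Ccl20 (MSTRG.18195) draws Ccr6-bearing lymphocytes and dendritic cells. It was at 115.79, 82.33 and 101.39 FPKM in FCA, at 168.73, 115.18 and 94.71 in AT01, at 113.51, 101.40 and 94.52 in AT1, and at 86.47, 102.22 and 157.56 in AT10. It had the narrowest range of the members, 2.05-fold, and all groups overlapped. Its log2 fold changes against FCA were 0.31 in AT01, 0.06 in AT1 and 0.17 in AT10 (limma adjusted p from 0.776 to 0.887).

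Cxcl1 (MSTRG.5644), Cxcl2 (MSTRG.5643) and Cxcl3 (MSTRG.5645) are related neutrophil chemokines, and sharing of reads between such copies was not tested. Cxcl1 was at 441.22, 996.45 and 645.51 FPKM in FCA, at 701.30, 472.33 and 479.31 in AT01, at 414.31, 410.94 and 322.68 in AT1, and at 384.43, 479.05 and 978.47 in AT10. Every AT1 library lay below every FCA library and every AT01 library. AT1 averaged 382.6 ± 52.0 FPKM and FCA 694.4 ± 280.8 (SD, n = 3). The log2 fold change of AT1 against FCA was -0.79 (95% interval -1.55 to -0.03, unadjusted p = 0.0443, limma adjusted p = 0.445). The exact permutation test (two-sided) gave p = 0.1, the smallest that 3 against 3 libraries allow. Without FCA replicate 2 the change was -0.49 and without FCA replicate 1 it was -1.08. The difference did not pass after adjustment.

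Cxcl3 was at 210.25, 200.23 and 299.31 FPKM in FCA, at 297.24, 204.38 and 179.26 in AT01, at 193.92, 179.68 and 169.27 in AT1, and at 206.97, 275.88 and 493.71 in AT10. The 3 AT1 libraries were below all of FCA and all of AT10. The log2 fold change of AT1 against FCA was -0.36 (limma adjusted p = 0.463) and that of AT10 against AT1 was 0.75 (adjusted p = 0.748), each with an exact permutation p of 0.1. The AT1 difference from FCA was -0.18 to -0.47 when libraries were left out in turn.

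Cxcl2 was the lowest of the 3. It was at 1.12, 1.25 and 2.57 FPKM in FCA, at 7.31, 3.14 and 1.64 in AT01, at 1.65, 1.47 and 1.46 in AT1, and at 3.36, 3.60 and 5.91 in AT10. All 3 AT10 libraries were above all FCA and all AT1 libraries, while AT01 overlapped with FCA. AT10 averaged 4.29 ± 1.41 FPKM, FCA 1.65 ± 0.802 and AT1 1.53 ± 0.107 (SD, n = 3). For AT10 against FCA the log2 fold change came to 1.01 ± 0.27 (SE; 95% interval 0.33 to 1.69; unadjusted p = 0.0113, limma adjusted p = 0.272, exact permutation p = 0.1). That of AT10 against AT1 was 1.04 ± 0.19 (SE; unadjusted p = 0.00192, limma adjusted p = 0.343, exact permutation p = 0.1). Leaving out a library moved the first between 0.80 and 1.24 and a pseudocount of 0.1 FPKM gave 1.38. Cxcl2 was the 1 member past the study's own criterion in these comparisons, which asks for an unadjusted p below 0.05 and a log2 value past 1 either way. The study applied it with Ballgown. Here, and in the main counts below, the p and the log2 value came from limma on log2(FPKM + 1), so the measure differs. Neither log2 fold change of Cxcl2 passed after adjustment. The order did not follow dose, since AT01 averaged 4.03 ± 2.94 FPKM and AT1 1.53 ± 0.107.

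Cxcl12 (SDF-1, MSTRG.12948), a chemokine that fibroblasts make at rest, was at 19.50, 21.79 and 16.94 FPKM in FCA, at 15.20, 21.35 and 15.65 in AT01, at 10.05, 23.84 and 10.08 in AT1, and at 22.33, 6.73 and 14.43 in AT10. Each treated group overlapped with FCA. The log2 fold changes were -0.16 in AT01, -0.49 in AT1 and -0.53 in AT10 (limma adjusted p from 0.591 to 0.832).

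Cx3cl1 (fractalkine, MSTRG.8399), made as a membrane-bound adhesion molecule and shed, was the least abundant member by median. It was at 0.38, 7.46 and 0.89 FPKM in FCA, at 0.46, 6.91 and 5.65 in AT01, at 6.37, 1.05 and 0.49 in AT1, and at 0.44, 1.24 and 0.38 in AT10. Like Ccl7 it split in 2, with 8 libraries at 0.38 to 1.24 and 4 at 5.65 to 7.46 FPKM. The high libraries were FCA replicate 2, AT1 replicate 1, AT01 replicate 2 and AT01 replicate 3. AT10 was the group with no high library, and its log2 fold change against FCA was -0.77 (95% interval -2.52 to 0.98). Splits of this kind were found in 525 of 11611 tested records (4.52%), by a rule set after such records had been seen.

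**Figure D3:**
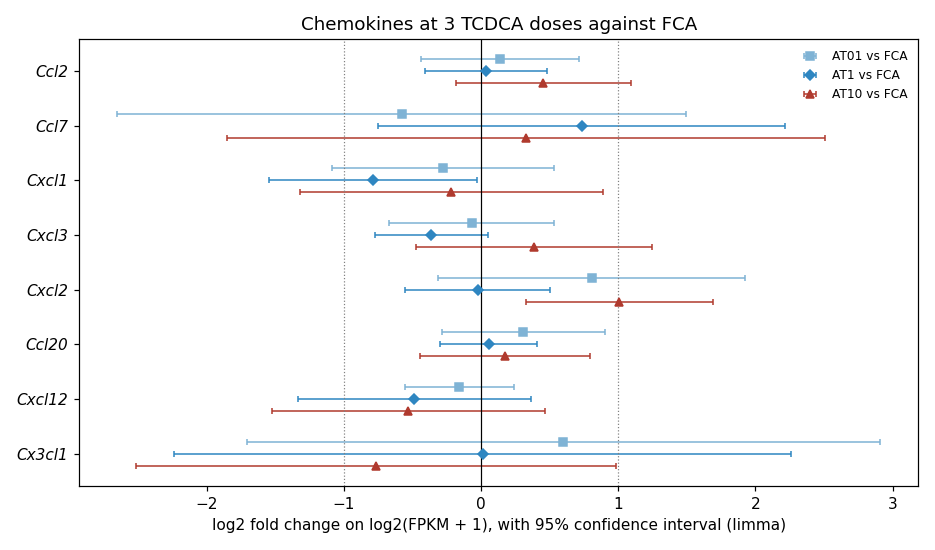
Log2 fold change of log2(FPKM + 1) against FCA (horizontal axis) with its 95% interval from limma, for each member at 3 doses. Dotted lines mark -1 and 1, and the 2 intervals that leave out 0 are those of Cxcl2 in AT10 and Cxcl1 in AT1.

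Across comparisons no member passed the adjusted threshold. In AT10 against FCA, 0 of 8 members had a limma adjusted p under 0.05 (0.172% of all records did) and 1 had an unadjusted p under 0.05 (11.9% did). Groups did not overlap for 1 of 8 members (19.9% of all records), and the criterion of the study was passed by 1 of 8 (0.706%). In AT1 against FCA, 0 passed the adjusted threshold (0.0947%), 1 had an unadjusted p under 0.05 (11%), 2 of 8 did not overlap (19.9%) and 0 passed the criterion (0.62%). In AT01 against FCA, 0 passed the adjusted threshold (0.0947%), 0 had an unadjusted p under 0.05 (6.6%), 0 did not overlap (14%) and 0 passed the criterion (0.758%). With 8 members, 1 member is 12.5%. The 3 comparisons share the FCA libraries.

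Between doses, too, no member passed after adjustment. In AT10 against AT1, 0 of 8 passed the adjusted threshold (0.258%), 1 had an unadjusted p under 0.05 (6.46%), 2 did not overlap (13.9%) and 1 passed the criterion (0.594%). In AT10 against AT01, 0 passed the adjusted threshold (0.0689%), 0 the unadjusted (4.97%), 0 did not overlap (11.1%) and 0 passed the criterion (0.672%). For AT1 against AT01, 0 passed the adjusted threshold (0.129%) and 1 the unadjusted one (3.43%). That was Cxcl1, with a log2 fold change of -0.51 (unadjusted p = 0.0409), and it was also the 1 member whose groups did not overlap (8.6%), while 0 passed the criterion (0.568%). With all 9 treated libraries against FCA, 0 of 8 passed the adjusted (0.0258%) or unadjusted threshold (12%), 0 did not overlap (2.86%) and 0 passed the criterion (0.491%). An F test over the 4 groups found 0 of 8 with an adjusted p under 0.05, beside 0.0431% of all records. Its lowest adjusted p was that of Cxcl2 (limma adjusted p = 0.569), which was the 1 member under 0.05 before adjustment, as were 8.57% of all records. A Ballgown-like F test, after the tool of the study, called 0 of 8 after adjustment in any of the comparisons.

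The median log2 fold change over the 8 members was 0.25 in AT10 against FCA, with 5 higher and 3 lower, beside -0.01 for all records. It was -0.01 in AT1, with 4 higher and 4 lower, beside 0.02 for all records, and 0.03 in AT01, with 4 and 4, beside 0.00 for all records. Between doses it was 0.27 in AT10 against AT1 and 0.13 in AT10 against AT01, with 5 higher and 3 lower in each. All records had -0.01 and -8.4e-05 there. For AT1 against AT01 the members had -0.31, with 1 higher and 7 lower, beside 0.02 for all records. The AT10 values against FCA leaned on AT10 replicate 3. Ccl2, Cxcl3, Ccl20, Cxcl1 and Cxcl2 had 0.45, 0.39, 0.17, -0.22 and 1.01 with it. Without it they had 0.21, 0.04, -0.07, -0.61 and 0.80 in the same order. Of the 10 fibroblast markers tested, 8 were lower in AT10 than in FCA, with a median log2 fold change of -0.22. AT10 replicate 3 had the lowest summed level of these markers, 5764.83 FPKM, AT10 replicate 1 had 5885.23, and AT10 replicate 2 had 7236.33, within the range of FCA (6744.52 to 7237.63). Their part in the chemokine values of AT10 was not tested.

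The members were among the more variable records. The SD within groups of log2(FPKM + 1) was 0.334 for Ccl2, 0.336 for Ccl20, 0.405 for Cxcl3, 0.496 for Cxcl1, 0.50 for Cxcl2 and 0.547 for Cxcl12. It was 1.11 for Ccl7 and 1.16 for Cx3cl1. The median over all tested records was 0.169. Each member's SD was above at least 79.6% of the tested records. AT10 replicate 3 was the highest of the 12 libraries for Ccl2, Ccl7 and Cxcl3.

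Pairs of the 6 members without 2 sets of libraries were compared over the 12 libraries. The highest correlation was between Cxcl2 and Cxcl3, with Pearson's r = 0.77 (permutation p = 0.0039, 0.0585 after Benjamini-Hochberg adjustment over 15 pairs) and Spearman's rho = 0.63 (permutation p = 0.0325, 0.38 adjusted). It was 0.83 within groups and 0.58 without AT01 replicate 1 and AT10 replicate 3. Ccl20 and Cxcl2 had r = 0.71 and rho = 0.46 (permutation p of r = 0.00899, adjusted 0.0674), and r was 0.02 without the same 2 libraries, on which the relation thus rests. Ccl20 and Cxcl3 had r = 0.68 and rho = 0.54 (permutation p of r = 0.0186, adjusted 0.0699), and r was 0.14 without AT01 replicate 1 and AT10 replicate 3. Cxcl1 and Cxcl3 had r = 0.68 and rho = 0.55 (permutation p of r = 0.0151, adjusted 0.0699). For them r was 0.84 without FCA replicate 2 and AT10 replicate 3, but 0.49 without AT10 replicate 3 alone. Cxcl12 stood apart, with r between -0.20 and 0.18 with the other 5. No pair passed after adjustment.

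The highest correlations over all 12 libraries were with Cxcl3. Of 11030 named records, Nfkbiz, an NF-kB cofactor of the IκB family, had r = 0.95 with it and ran from 10.81 to 20.45 FPKM over the 12 libraries. Lif, a cytokine of the IL-6 family, had r = 0.95 and ran from 32.74 to 78.28 FPKM. Without the 2 libraries farthest from the median of Cxcl3 these were 0.91 and 0.86, and AT10 replicate 3 was the highest in both. The closest records to the other members were Naa38 (r = 0.90) and Nhsl1 (0.89) for Cxcl1, Slk (0.87) and Tslp (0.85) for Cxcl2, Pkp1 (0.90) and Kcnj2 (0.83) for Ccl2, and Pigq (0.94) and Foxk1 (0.90) for Cxcl12. Pigq stayed at 0.94 without the 2 libraries farthest for Cxcl12, and with group means removed its r was 0.98, above the 0.95 of Nfkbiz with Cxcl3. For Ccl20 they were RGD1563365 (0.94) and Tdp1 (0.91). No r is given for Ccl7 and Cx3cl1, whose libraries fell into separate sets. These are the highest of many values and are given as a description.

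**Figure D4:**
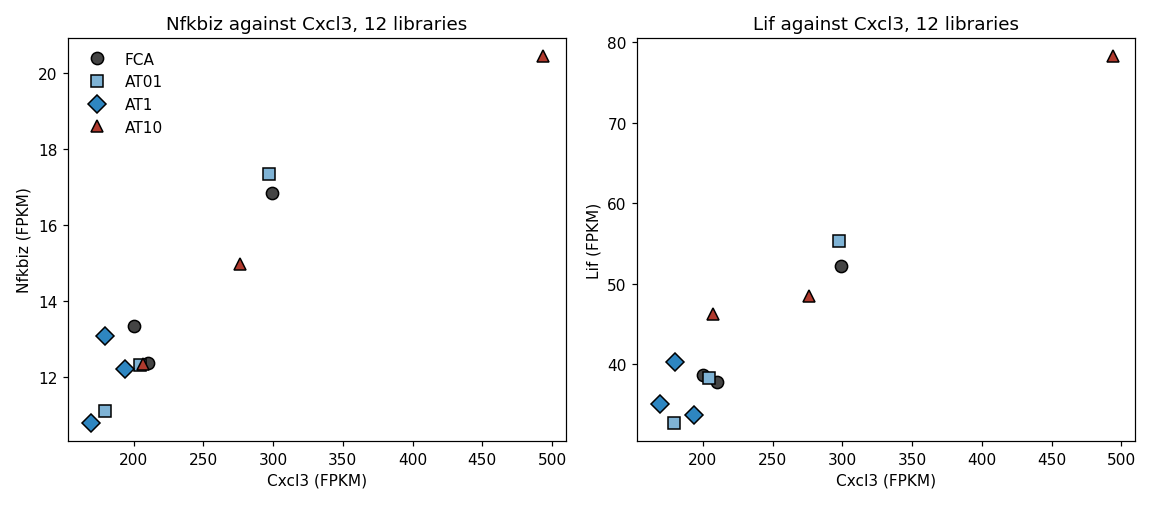
Nfkbiz (left) and Lif (right) against Cxcl3, in FPKM on linear axes, with 1 point per library and a symbol per group. Both rise with Cxcl3 and AT10 replicate 3 lies highest in each panel.

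Of 28 other chemokine ligands, 23 had a record and 4 were tested, while 19 stayed under 1 FPKM in every library. Cxcl6, a further neutrophil chemokine, ran from 171.29 to 388.89 FPKM, with its highest value in AT10 replicate 3. Cxcl13, which attracts B cells, ran from 127.13 to 244.43 FPKM, and the AT10 libraries were all above the FCA libraries (log2 fold change 0.33, unadjusted p = 0.0257, limma adjusted p = 0.355). Cxcl16 ran from 12.09 to 33.41 FPKM and Cxcl14 from 2.55 to 12.88 FPKM.

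Most chemokine receptors with a record stayed under 1 FPKM. Of 23 receptors 15 had a record, 4 were tested and 11 were under 1 FPKM in all libraries. Ccr2, Ccr6 and Cx3cr1 were among those without a record, so their levels are not known. The tested ones were Ackr4 (5.71 to 29.81 FPKM), the atypical Cxcl12 receptor Ackr3 (0.41 to 22.91 FPKM), Ccr1 (0 to 4.91 FPKM) and Cxcr3 (0.95 to 1.94 FPKM). Cxcr4, the signalling receptor of Cxcl12, reached at most 0.12 FPKM. Ackr4 had a log2 fold change of 1.39 in AT10 against FCA (unadjusted p = 0.0464, limma adjusted p = 0.411). It was low in FCA replicates 1 and 2 and in AT01 replicate 1. Ackr4 and Ccr1 each had 2 records of their name, and the values given are those of the record with the higher mean FPKM.

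**Figure D5:**
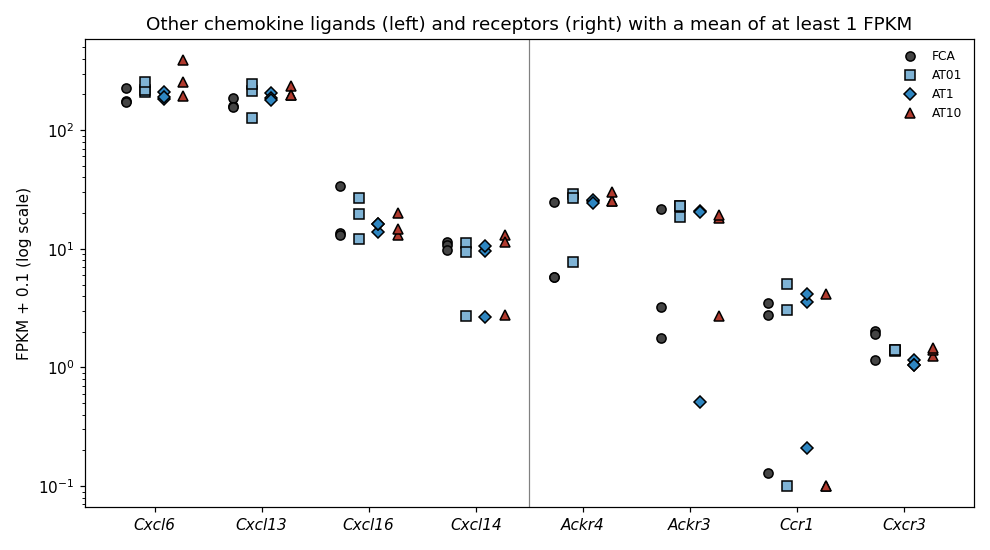
FPKM + 0.1 (vertical log axis) of the 4 tested other ligands (left of the line) and the 4 tested receptors (right), with 1 point per library and a symbol per group. Cxcl6 and Cxcl13 lie above 100 FPKM in all libraries, and Cxcl14, Ackr3, Ackr4 and Ccr1 split into a low and a high set.

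Of 35 genes that induce chemokines or turn their transcripts over, 33 were tested and 0 had an adjusted p under 0.05 in any comparison with FCA. At an unadjusted p under 0.05, 2 were higher and 1 lower in AT10, where 11.9% of all records were under it. In AT1, 1 was higher and 5 were lower (11% of all records), and in AT01 0 were higher and 4 lower (6.6%). The 4 most abundant were Tnfrsf1a, Zfp36, Tnip1 and Irak1. Zfp36, which destabilises chemokine transcripts, had log2 fold changes of -0.46 in AT1 (unadjusted p = 0.00178, limma adjusted p = 0.306) and -0.37 in AT01 (adjusted p = 0.652), with every library below FCA in both. In AT10 it was -0.16 (adjusted p = 0.665) and the groups overlapped. Of 13 genes for cleavage and retention of chemokines, 11 were tested, and 3 were higher and 8 lower in AT10, with 7 higher and 4 lower in AT1 and in AT01. The most abundant were Mmp2, Mmp14, Sdc4 and Gpc1. Gpc1 had log2 fold changes of -0.72 in AT10 (limma adjusted p = 0.261), -0.54 in AT1 (0.42) and -0.50 in AT01 (0.722). In AT10 the others had -0.14 (Mmp2), -0.11 (Mmp14) and -0.06 (Sdc4), and in AT1 they had 0.09, 0.12 and -0.12 in the same order. Of 18 genes induced along with chemokines 14 were tested, led by Mmp3, Il6, Csf1 and Mmp13. Il6 ran from 81.56 to 204.56 FPKM and was highest in AT10 replicate 3. Against FCA its log2 fold changes were 0.58 in AT10, 0.57 in AT1 and 0.51 in AT01 (limma adjusted p = 0.426, 0.471 and 0.72). Each treated group overlapped with FCA for Il6. Of the 14 tested, 10 were higher and 4 lower in AT10, 6 and 8 in AT1, and 7 and 7 in AT01.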

How the data were processed

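Total RNA of 12 FLS libraries was poly(A)-selected and sequenced in pairs. The authors trimmed reads with cutadapt, aligned them with HISAT2, assembled and quantified transcripts with StringTie and Ballgown, and deposited FPKM per gene record. The genome build is not given in the sources used here. FPKM keeps no read counts, and no scaling between libraries is stated.

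Records that averaged 1 FPKM or more were tested on log2(FPKM + 1) with limma 3.58.1 in R 4.3.3 (trend, 2 groups per fit), with Benjamini-Hochberg adjustment over all 11611 records. Single values were tested with exact permutation tests in SciPy 1.17.1. On simulated data for AT10 against FCA, with 200 of 11611 genes changed by 2 on the log2 scale, 88.5% were recovered with 12 false calls. The noise was normal and the 200 came from all tested genes, whose median SD was 0.169. The members had SDs of 0.334 to 1.16, so this share does not describe them. Smaller changes were not simulated. The members and gene lists were chosen with earlier results of these data known. Some list genes had several records of the same name, and the record with the highest mean FPKM was used for each. Named were all members, list genes past the adjusted threshold, the 4 most abundant of each list (of the macrophage, endothelial and T cell markers, the tested one and those at 0) and the 2 records most like each member without separate sets of libraries. Cxcr4, Vcam1, Ptgs2 and Fos fall outside this rule and were picked after their values were seen. Ccr2, Ccr6, Cx3cr1, Col1a2, Pdgfra and Ptprc are named as examples without a record. Alternatives were the pseudocount, the filter, a fit over all libraries, a Ballgown-style test, median-of-ratios scaling, summing by name, a replicate block and leaving out libraries.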

Additional observations from a re-analysis of the deposited data

How the results depend on the processing

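Over 56 member fold changes and 802 alternatives, 755 kept their direction and side of the threshold, 47 uncalled values changed sign and 0 were called. Many of these could not change direction. The filters, the fit over all libraries, the Ballgown-style test, summing by name and the replicate block leave a member's fold change as it was. Under them only its p could move, so 755 of 802 overstates how steady the directions were. The lowest adjusted p was 0.0764, for Cxcl2 in AT10 against AT1 without AT10 replicate 3. The count of members past the study's criterion was less steady. In AT10 against FCA it went from 1 to 0 with a filter at a mean of 10 FPKM, which removes Cxcl2, and ranged from 0 to 1 with libraries left out (0 without FCA replicate 1, FCA replicate 2 or AT10 replicate 3). In AT10 against AT1 it went from 1 to 0 with the same filter and ranged from 0 (without AT10 replicate 3) to 2 (without AT10 replicate 1, when Cxcl3 was added). It ranged from 0 to 1 with libraries left out in AT1 against FCA (Cxcl1, without FCA replicate 1), in AT01 against FCA (Cxcl2, without AT01 replicate 3), in AT10 against AT01 (Cx3cl1, without AT01 replicate 1) and in AT1 against AT01 (Ccl7 without AT01 replicate 2, Cxcl2 without AT01 replicate 3). The number of all records called varied more. For AT10, AT1 and AT01 against FCA the counts were 20, 11 and 11. They were 7, 6 and 7 with the stricter filter, 2, 3 and 5 in 1 fit over all libraries, 1, 0 and 1 under the Ballgown-style test, 1, 0 and 2 with a replicate block, and at most 35, 33 and 30 with a library left out.

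Libraries of the same number showed no visible pairing, which does not show that none existed. The correlation of their deviations ran from -0.105 to 0.0942 over 18 pairs, and 3 of 12 libraries were closest to their own number. With a replicate block the count of members past the criterion in AT1 against AT01 was 1 (Ccl7, log2 fold change 1.31) in place of 0, and records called in AT10 against AT1 went from 30 to 1 under that block.

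Read totals were not used here. With 3 libraries per group, differences within the wide intervals of Ccl7 and Cx3cl1 were not detectable.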

Other observations

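Among the genes induced along with chemokines, Vcam1, an adhesion molecule for leukocytes, and Ptgs2, the inducible cyclooxygenase, were picked after their values were seen. Vcam1 was at 3.64, 2.55 and 3.07 FPKM in FCA and between 4.01 and 5.70 FPKM in the 9 treated libraries, all above FCA. Compared with FCA it differed by 0.43 (AT10), 0.56 (AT1) and 0.49 (AT01) on the log2 scale (limma adjusted p = 0.297, 0.42 and 0.571). Ptgs2 was at 40.49, 66.17 and 97.96 FPKM in AT10 and at 40.76, 16.63 and 32.90 in FCA, a log2 fold change of 1.16 (limma adjusted p = 0.403), and these groups overlapped. In AT1 and AT01 it was -0.19 and -0.16 (adjusted p = 0.825 and 0.932). Fos, a subunit of AP-1, was at 8.74, 14.97 and 8.45 FPKM in FCA and at 4.54, 5.91 and 5.32 in AT1, with all AT1 libraries below FCA (log2 fold change -0.87, limma adjusted p = 0.42). It was -0.71 in AT01 and -0.49 in AT10 (adjusted p = 0.696 and 0.47). None of these passed after adjustment.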
